A study of Mus musculus with 8 samples.

Results

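Il19, Il20, Il24, Il20ra, Il20rb, Il22ra1 and Il10rb encode the interleukin-20 subfamily of cytokines and the receptor chains that bind them. They are 7 genes of the 55487 in the count tables, taken by symbol through GENCODE M21, 3 for ligands and 4 for receptor chains. No measured value enters that rule, but the family itself was chosen by a measured one, the increase of Il19 after DMBA/TPA. The members' values in every comparison that holds the DMBA/TPA libraries are therefore given as a description with no p-value.

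Interleukin-19, interleukin-20 and interleukin-24 are secreted relatives of interleukin-10, made in skin by keratinocytes and myeloid cells. All of them bind the receptor of the IL-20RA and IL-20RB chains, and interleukin-20 and interleukin-24 also bind a receptor of IL-22RA1 and IL-20RB. IL-22RA1 pairs with IL-10RB to form the interleukin-22 receptor. The receptors signal through JAK kinases to STAT3, and in human skin the ligands are known for their high levels in psoriasis and for driving keratinocyte growth and innate defence genes.

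RNA was sequenced from dorsal skin epidermis of FVB mice labelled wild type and 7 to 8 weeks old, in 8 libraries, 2 in each of 4 groups. The DMBA group received 100 µl of the carcinogen 7,12-dimethylbenz[a]anthracene (1 mg/ml) a single time, and its skin was taken on day 10. In the DMBA/TPA group the same DMBA application was followed by the phorbol ester TPA, a tumour promoter that activates protein kinase C, at 0.1 mg/ml and 2 times per week, and skin was taken on day 52. DMBA and TPA were dissolved in acetone, and each regimen has a separate acetone group, called Control DMBA for the first and Control DMBA TPA for the second. When the acetone groups were harvested is not in the labels. Whether the 2 libraries in each group are different animals is not stated, so p-values reflect library-to-library spread alone, possibly technical.

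The libraries held 26300400 to 36002886 counts assigned to genes. All 8 keratinocyte markers (Krt5, Krt14, Krt1, Krt10, Krt15, Trp63, Dsg3 and Col17a1) were present in every library, with a summed level of 28390 to 47270 CPM (counts scaled to a common library size, with TMM factors). Unaligned reads made up 3.80% to 9.82% of a library in 7 libraries and 16.4% in DMBA/TPA 2. In bulk tissue, fewer cells of a type and less RNA per cell cannot be told apart.

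The ligand genes lie side by side on chromosome 1 within 58 kb, all on the minus strand. In mm10 coordinates, Il24 (ENSMUSG00000026420) spans 130882074 to 130887454, Il20 (ENSMUSG00000026416) 130906985 to 130911451 and Il19 (ENSMUSG00000016524) 130932656 to 130940115. Il20ra (ENSMUSG00000020007) is on chromosome 10, 19712570 to 19760053, plus strand, and is overlapped by the antisense gene Gm33332. Il20rb (ENSMUSG00000044244) is on chromosome 9, 100457719 to 100486788, minus strand. Il22ra1 (ENSMUSG00000037157) is on chromosome 4, 135728172 to 135752140, plus strand. Il10rb (ENSMUSG00000022969) is on chromosome 16, 91406164 to 91425834, plus strand, and overlaps the gene Gm21970 on the same strand. The strand setting of the counting is not given in the sources used here, so the counts of Il20ra and Il10rb are uncertain where these genes overlap others.

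Promoter windows, the 250 bases before the RefSeq start on GRCm38.p6, were found for 5 of the 7 members. The windows of Il19 (chr1:130940116-130940365, minus strand), Il20 (chr1:130911297-130911546, minus strand) and Il20ra (chr10:19712337-19712586, plus strand) are shown because these are ligands at or near 0 outside DMBA/TPA and the receptor chain with the largest decrease there. Each is printed 5′ to 3′ as transcribed, with capitals for matches to the AP-1 motif TGANTCA, the TPA response element, or to the STAT motif TTCNNNGAA, both of which read the same on either strand.
Il19: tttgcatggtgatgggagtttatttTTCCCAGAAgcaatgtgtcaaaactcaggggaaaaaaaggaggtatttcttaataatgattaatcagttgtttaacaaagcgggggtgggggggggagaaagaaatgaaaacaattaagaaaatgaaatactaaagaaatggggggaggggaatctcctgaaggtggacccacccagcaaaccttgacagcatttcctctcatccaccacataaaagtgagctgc
Il20: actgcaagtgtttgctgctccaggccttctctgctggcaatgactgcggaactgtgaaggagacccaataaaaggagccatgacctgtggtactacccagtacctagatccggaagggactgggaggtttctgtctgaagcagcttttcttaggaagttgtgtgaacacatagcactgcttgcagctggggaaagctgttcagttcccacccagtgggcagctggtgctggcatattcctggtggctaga
Il20ra: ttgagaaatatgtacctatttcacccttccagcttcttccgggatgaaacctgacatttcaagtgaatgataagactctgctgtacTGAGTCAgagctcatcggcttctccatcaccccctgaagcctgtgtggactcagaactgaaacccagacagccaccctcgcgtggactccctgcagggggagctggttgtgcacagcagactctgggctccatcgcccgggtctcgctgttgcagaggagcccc
The Il19 window held a STAT match, TTCCCAGAA, whose first base is 225 bases before the start, and no AP-1 match. The Il20ra window held the AP-1 match TGAGTCA at 164 bases, and the Il22ra1 window held TGAATCA at 222 bases. The windows of Il20 and Il20rb held neither motif. By the GENCODE coordinates the Il20rb window lies inside the gene and the Il20 and Il20ra windows partly so. Their GENCODE starts thus lie upstream of the RefSeq starts used here. For Il22ra1 no GENCODE transcript matched the sequence at the RefSeq start. Of 32851 promoter windows of this length, 6.75% held an AP-1 match and 7.02% a STAT match, and the motifs do not overlap in these windows.

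Il19 and Il24, ligands that share the IL-20RA and IL-20RB receptor, were the members with the widest range over the 4 groups. Il19 had 266 and 434 counts in DMBA/TPA 1 and 2, which is 10.5 and 17.0 CPM, a mean of 13.7 ± 4.62 (SD, n = 2). It had 0 counts in both Control DMBA TPA libraries, both DMBA libraries and Control DMBA 1, and 7 counts in Control DMBA 2. Both DMBA/TPA libraries lay far above the other 6.

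Il24 had 237 and 465 counts in DMBA/TPA, 9.32 and 18.2 CPM, a mean of 13.8 ± 6.28 (SD, n = 2). Its counts were 1 and 0 in Control DMBA TPA, 2 and 1 in DMBA, and 0 and 16 in Control DMBA, where the 16 counts (0.456 CPM) were again in Control DMBA 2. Il20 was detected in the DMBA/TPA libraries alone, with 6 and 4 counts (0.236 and 0.157 CPM), and was too low to be tested. A count of 0 over the group allows up to 0.0433 CPM in Control DMBA, 0.0443 in DMBA and 0.0461 in Control DMBA TPA, at a floor of 3 counts per group that covers counting error only.

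**Figure D1:**
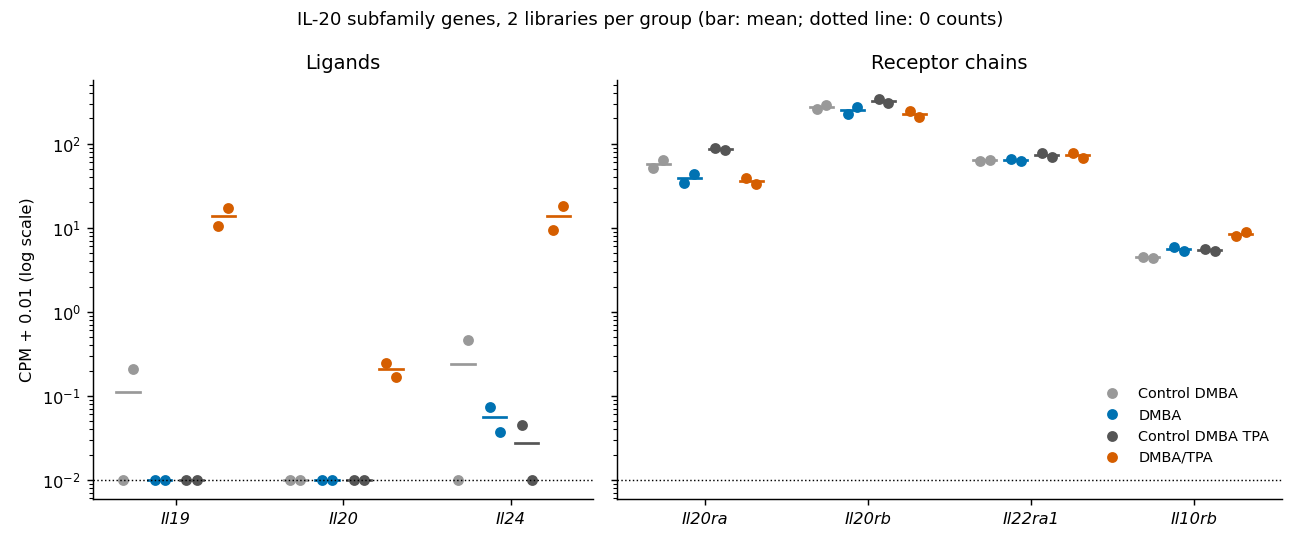
CPM plus 0.01 on a log axis for the 3 ligands and 4 receptor chains, with a point per library (2 per group), a bar at the group mean and a dotted line where 0 counts lie. The DMBA/TPA points of Il19 and Il24 sit at 9.32 to 18.2 CPM and all other ligand points below 0.5 CPM, while every receptor chain is present in all 8 libraries.

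With the Control DMBA TPA group set at the floor of 3 counts, Il19 was 298-fold higher in DMBA/TPA and Il20 4.26-fold higher. The DMBA/TPA counts of 700 and 10 were taken as exact and library spread was left out, so these folds are not strict lower bounds. Il24 had 702 counts against 1, a ratio of 896 [160, 35500] with an exact 95% counting interval. These sizes depend on which acetone group is the control. Against the other acetone group the fitted log2 differences were 7.03 for Il19 and 5.88 for Il24, in place of 11.76 and 9.47. Within the DMBA/TPA group the libraries differed: DMBA/TPA 2 had 1.62 times the CPM of DMBA/TPA 1 for Il19, 1.95 times for Il24 and 0.664 times for Il20. Il19 and Il24 took near-equal parts of the ligand counts. Il19 made up 52.3% [47.8, 56.7] of 509 ligand counts in DMBA/TPA 1 and 48.1% [44.8, 51.4] of 903 in DMBA/TPA 2 (exact Clopper-Pearson 95% intervals, counting error only), and Il20 made up 1.18% and 0.443%.

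The receptor chains were present in all libraries. Il20rb, the chain shared by both receptors of the subfamily, was the most abundant per length. It stood at 257 and 290 CPM (Control DMBA), 229 and 277 (DMBA), 343 and 303 (Control DMBA TPA) and 246 and 207 (DMBA/TPA). Both DMBA/TPA libraries lay below both Control DMBA TPA libraries, while DMBA and Control DMBA overlapped. The DMBA/TPA difference on the log2 scale was -0.51 ± 0.14 (SE). It was -0.42 without Control DMBA TPA 1, -0.39 without DMBA/TPA 2 and -0.27 against the other acetone group, and in these 3 fits the call was lost.

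Il20ra, the chain that completes the receptor bound by all 3 ligands, had the largest decrease among the receptor chains. Its levels were 88.8 and 84.1 CPM in Control DMBA TPA and 39.1 and 32.8 CPM in DMBA/TPA, with no overlap and a log2 difference of -1.26 ± 0.16 (SE), a 2.40-fold decrease. Its level was 33.8 and 44.2 CPM after DMBA alone, below the 51.8 and 64.0 CPM of Control DMBA, also without overlap but not called. With 2 libraries per group, a lack of overlap alone is no test. In the order of group means, DMBA/TPA (36.0 ± 4.41 CPM) and DMBA (39.0 ± 7.33) overlapped, followed by Control DMBA (57.9 ± 8.65) and Control DMBA TPA (86.4 ± 3.31), with SD over 2 libraries. Against the other acetone group the DMBA/TPA difference was -0.69 on the log2 scale in place of -1.26, so its size depends on which acetone group is the control.

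Il22ra1, the chain through which keratinocytes also receive interleukin-22, stayed within a narrow range of 62.1 to 78.6 CPM over the 8 libraries. Its groups overlapped in the DMBA/TPA comparison, with a log2 difference of -0.02 ± 0.11 (SE), and in the DMBA comparison. Il10rb, the broadly expressed chain of the interleukin-10 and interleukin-22 receptors, was low. The Control DMBA libraries had 4.48 and 4.36 CPM, the DMBA libraries 5.91 and 5.24, the Control DMBA TPA libraries 5.64 and 5.25, and the DMBA/TPA libraries 8.02 and 8.85. The DMBA/TPA libraries were the highest, with a log2 difference of 0.63 ± 0.18 (SE). The Il10rb call was lost without Control DMBA TPA 1 or 2, without DMBA/TPA 2, and when only the compared groups were fitted.

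Per kilobase of merged exon, the scale on which genes can be set side by side, the levels in DMBA/TPA 1 and 2 were 9.10 and 14.8 CPM per kb for Il19 and 6.72 and 13.1 for Il24. Il20ra stood at 16.1 and 13.5 CPM per kb in the same libraries. Il22ra1 had 30.1 and 26.7, and Il20rb 58.5 and 49.2 CPM per kb. In DMBA/TPA 2, Il19 was thus above Il20ra and Il24 just under it, whereas in the other groups both ligands were below 0.5 CPM per kb and Il20ra between 13.9 and 36.6. Il10rb was the lowest receptor chain, at 2.11 and 2.32 CPM per kb in DMBA/TPA.

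All genes were fitted together with the quasi-likelihood test of edgeR and called at a Benjamini-Hochberg adjusted p of 0.05. Of the 7 members, 6 passed the filter on low counts, Il19 and Il24 only through the DMBA/TPA libraries, and Il20 did not. In the DMBA/TPA comparison, where 40.7% of all tested genes were called (22.4% higher, 18.3% lower), the fit placed Il19, Il24 and Il10rb on the higher side and Il20ra and Il20rb on the lower side of its threshold. That count of 5 of 6 is a description and no test, since the choice of the family used this comparison. It was 3 without Control DMBA TPA 1 and 3 without DMBA/TPA 2. With total counts in place of TMM scaling the median of all genes moved from -0.003 to -0.12 on the log2 scale, and of the called genes 45% in place of 55% were higher.

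Skin after DMBA alone, taken on day 10, was compared with its acetone group, whose harvest day is not in the labels. None of the 4 receptor chains was called, where 0.267% of all tested genes were (0.19% higher, 0.0771% lower), and Il20ra had an unadjusted p under 0.05. The log2 difference of Il20ra was -0.57 ± 0.16 (SE, adjusted p = 0.241 by edgeR). It was called against all 4 acetone libraries (-0.86), against the other acetone group (-1.15) and without a low-count filter (-0.57). Those fits called 1228 and 3210 of 19450 tested genes, and 661 of 31680 without the filter. DESeq2 called none of the 4 receptor chains.

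The other receptor chains had -0.11 ± 0.14 (Il20rb, adjusted p = 0.954 by edgeR), 0.00 ± 0.11 (Il22ra1, adjusted p = 1) and 0.33 ± 0.18 (Il10rb, adjusted p = 0.653) in the DMBA comparison. For the ligands the counts were at the edge of detection. Il19 had 0 counts in DMBA against 7 in Control DMBA, and Il24 had 3 against 16, a ratio of 5.22 [1.49, 28] in favour of the acetone group (counting interval). They get no test here, since they passed the low-count filter only through DMBA/TPA. All of these acetone counts came from Control DMBA 2, and Il20 had 0 counts in all 4 libraries.

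Between the acetone groups, Control DMBA TPA against Control DMBA, none of the 4 receptor chains was called, where 6.26% of all tested genes were (1.97% higher, 4.28% lower). The log2 difference of Il20ra was 0.58 ± 0.16 (SE, adjusted p = 0.0745 by edgeR). DESeq2 called it (0.59), as did the fit of these groups alone (0.58), the fit without a low-count filter (0.58) and those without DMBA/TPA 1 or 2. The other chains had 0.24 ± 0.14 (Il20rb, adjusted p = 0.31), 0.22 ± 0.11 (Il22ra1, adjusted p = 0.231) and 0.30 ± 0.18 (Il10rb, adjusted p = 0.322).

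The difference of responses, DMBA/TPA less DMBA with each against its own acetone group, includes the values that chose the family and is given as a description. It was past the threshold for Il19 and Il24, 2 of 6 members, and for 12.6% of all tested genes (8.7% higher, 3.95% lower). For the receptor chains the differences were -0.69 ± 0.23 (Il20ra), -0.40 ± 0.20 (Il20rb), -0.03 ± 0.15 (Il22ra1) and 0.30 ± 0.25 (Il10rb) on the log2 scale (SE), and none was called. Il20ra was called by DESeq2 (-0.68), without a low-count filter (-0.71) and without DMBA/TPA 1 (-0.82). Both Il19 and Il24 lost their call without Control DMBA 2 or DMBA 2.

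Within 200 kb of the ligand genes lie 9 other protein-coding genes with a name, of which 7 were tested. Mapkapk2, a stress kinase that stabilises cytokine mRNAs, rose in DMBA/TPA (0.88 ± 0.14 on the log2 scale, adjusted p = 0.00255 by edgeR), from 77.7 and 92.5 CPM to 140 and 172 CPM. The kinase gene Dyrk3 rose as well (1.51 ± 0.41, adjusted p = 0.0212). Pigr, the polymeric immunoglobulin receptor (-2.04 ± 0.41, adjusted p = 0.00629), and Pfkfb2, a regulator of glycolysis that overlaps the gene Gm29427 (-0.65 ± 0.14, adjusted p = 0.00871), fell. In the DMBA/TPA comparison 2 of the 7 thus rose and 2 fell, beside 22.4% of all tested genes higher and 18.3% lower. None of the 7 was called in the DMBA comparison, where 0.267% of all tested genes were.

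The other neighbours, Il10 and Fcmr, were too low to be tested. Il10, the anti-inflammatory founder of the cytokine family, whose start is 79.7 kb from that of Il19, had 7 and 1 counts in DMBA/TPA and 1 and 0 in Control DMBA TPA. Fcmr, an Fc receptor for immunoglobulin M next to Il24, had 5 and 34 counts in DMBA/TPA and 0 in both Control DMBA TPA libraries.

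**Figure D2:**
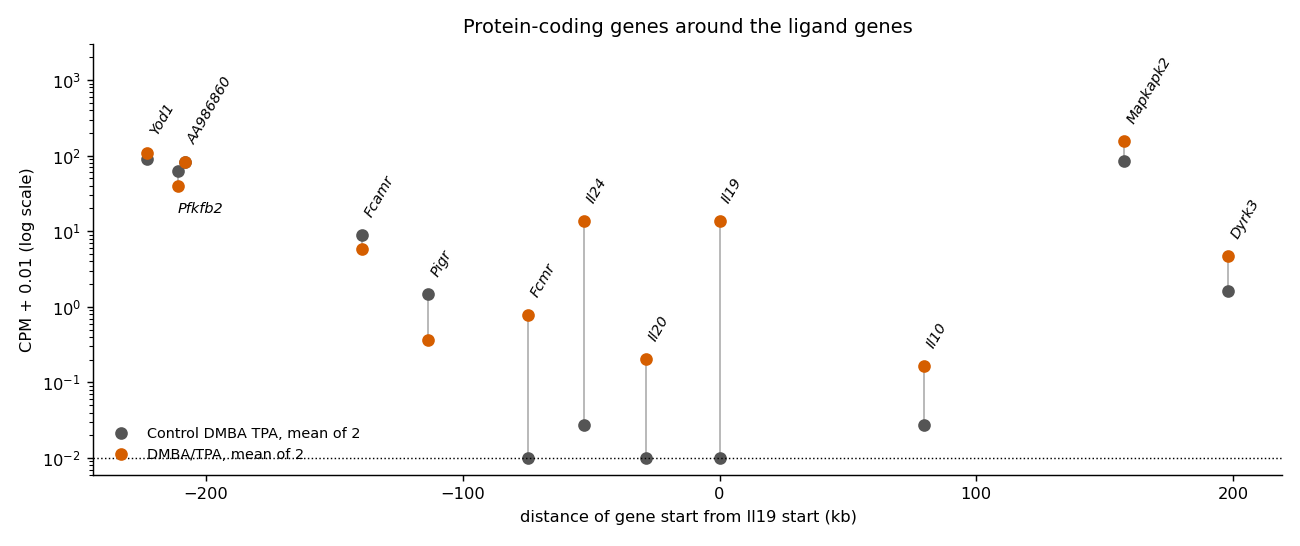
Mean CPM plus 0.01 (log axis, n = 2) of the named protein-coding genes around the ligand genes in Control DMBA TPA and DMBA/TPA, against the distance of each gene's start from the Il19 start in kb. Il19 and Il24 go from at or near the dotted line of 0 counts to 13.7 and 13.8 CPM, while Il20 between them reaches 0.196 CPM.

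The genes whose pattern was most like each member are given as a description, by Pearson's r of log2 CPM over the 8 libraries among 10693 or 10694 protein-coding genes of at least 5 CPM. These libraries share their groups, so any gene that separates DMBA/TPA from the rest scores high. For Il19 they were Kyat1 (r = 0.991), Nav3 (0.990) and Sdr42e1 (0.988), and for Il24 Ccdc187 (0.993), Siah2 (0.990) and Atp6v0d1 (0.989). Nav3, a neuron navigator family gene, went from 4.64 and 3.63 CPM in Control DMBA TPA to 26.0 and 25.3 CPM in DMBA/TPA, with Control DMBA 2 the highest of the other libraries at 6.41 CPM.

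For Il20ra the nearest were the mitochondrial calcium uniporter gene Mcu (0.990), Antxr1 (0.989) and Stk38l (0.986). For Il20rb they were the transcription factor genes Sox6 (0.992) and Hlf (0.990) and Il15ra (0.986), a chain of the interleukin-15 receptor. Il22ra1 was nearest to Tgs1 (0.977), Lcor (0.974) and Stk17b (0.970), and Il10rb to Flvcr2 (0.990), Hsp90b1 (0.987) and Ankfy1 (0.982).

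This list and those that follow were chosen with earlier results of these data known. Most genes named from them are those with the smallest adjusted p in the DMBA/TPA comparison. Their adjusted p-values in that comparison are thus selected and serve as a description. Of 12 other cytokines and receptors of the same class, 8 were tested. After DMBA/TPA 2 rose, 3 fell and 3 were not called, with a median of -0.29 on the log2 scale, beside 22.4% of all tested genes higher and 18.3% lower. Ifngr1, a chain of the interferon gamma receptor, fell (-1.04 ± 0.09, adjusted p = 0.000419 by edgeR), as did Il22ra2, the soluble binding protein that neutralises interleukin-22 (-1.56 ± 0.24, adjusted p = 0.00251). Il22ra2 had 12.3 and 13.5 CPM in Control DMBA TPA and 5.31 and 3.48 CPM in DMBA/TPA. F3, tissue factor, fell too (-0.73 ± 0.18, adjusted p = 0.0141), and Ifnar2, an interferon receptor chain, rose (0.91 ± 0.22, adjusted p = 0.0126).

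The count of 2 that rose was 0 without Control DMBA TPA 1 or 2, without DMBA/TPA 2 and against the other acetone group. In those fits fewer of all tested genes were called too. Il22 itself had 3 counts in DMBA/TPA 1 and 0 in every other library, and the interferon lambda genes Ifnl2 and Ifnl3 had 0 counts throughout. In the DMBA comparison none of the 8 was called, and 1 was higher and 3 lower against the other acetone group. With that control 3210 of all 19450 tested genes were called, 1865 higher and 1345 lower.

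Of 10 kinases and STAT factors that carry cytokine receptor signals, 2 rose, 1 fell and 7 were not called in the DMBA/TPA comparison (median -0.15), near the shares over all tested genes. Stat3, the main factor downstream of these receptors, went from 204 and 215 CPM to 277 and 341 CPM (0.56 ± 0.14, adjusted p = 0.0154 by edgeR), without overlap. Stat6, which carries interleukin-4 signals, rose by 0.44 ± 0.11 (adjusted p = 0.0129) and Jak1, the kinase bound by the ligand-specific chains, fell (-0.28 ± 0.10, adjusted p = 0.0468).

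The Jak1 call was lost with RLE scaling, without a low-count filter, by DESeq2 and on leaving out any library. It was also lost with the sample number as a block and when only the compared groups were fitted. None of the 10 was called without Control DMBA TPA 1 or 2, without DMBA/TPA 2 or against the other acetone group. In those fits fewer of all tested genes were called too. In the DMBA comparison Stat2, which carries type I interferon signals, rose from 35.4 and 40.0 CPM to 71.4 and 79.0 CPM (1.00 ± 0.12, adjusted p = 0.022 by edgeR). It was not called without Control DMBA 1 or 2 or without DMBA 1 or 2. The other 9 genes were not called.

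Of 16 inhibitors of JAK-STAT signalling, 5 were higher after DMBA/TPA, 4 lower and 7 not called (median -0.18), near the shares over all tested genes of 22.4% higher and 18.3% lower. Socs5, a suppressor of cytokine signalling, rose by 1.00 ± 0.15 (adjusted p = 0.00248 by edgeR). Ptpn6, a phosphatase of haematopoietic and epithelial cells (-0.98 ± 0.13, adjusted p = 0.00154), Socs6 (-0.56 ± 0.10, adjusted p = 0.00463) and Pias3, an inhibitor of STAT3 (-0.51 ± 0.10, adjusted p = 0.00507), fell. Socs3, the feedback inhibitor induced by STAT3 and named here after its values were seen, rose from 43.6 and 41.2 CPM to 65.8 and 96.6 CPM (0.94 ± 0.25, adjusted p = 0.0183). The 5 that rose were 2 without Control DMBA TPA 1 and 1 without Control DMBA TPA 2, without DMBA/TPA 2 or against the other acetone group. In those fits fewer of all tested genes were called too. None of the 16 was called in the DMBA comparison, and 1 was higher and 3 lower against the other acetone group. That control gave 3210 called genes of 19450.

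**Figure D3:**
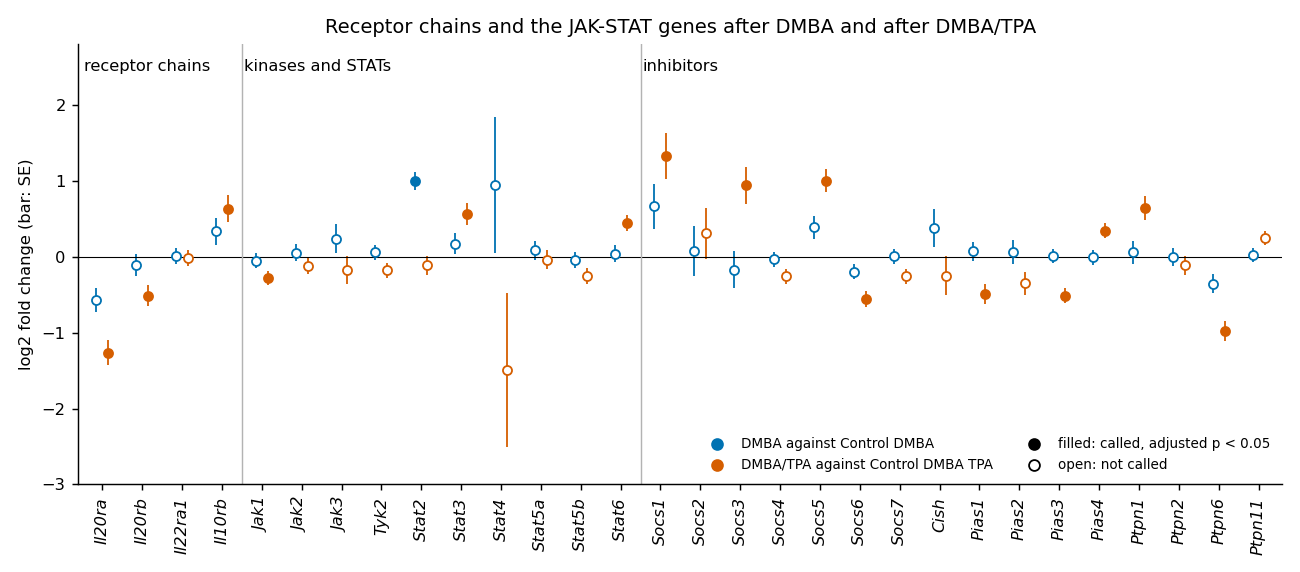
Log2 fold change with its SE for the 4 receptor chains, 10 JAK kinases and STATs and 16 inhibitors in the DMBA (blue) and DMBA/TPA (orange) comparisons, filled where called at adjusted p under 0.05. Il20ra lies lowest of the receptor chains in both comparisons, at -0.57 and -1.26, and the filled blue point is Stat2.

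Of 20 genes listed as STAT3 targets, 18 were tested. After DMBA/TPA 12 rose, 1 fell and 5 were not called, with a median of 0.78 on the log2 scale, beside 22.4% of all tested genes higher and 18.3% lower. Vegfa, an angiogenic growth factor, rose by 2.32 ± 0.20 (adjusted p = 0.000412 by edgeR) and Bcl3, a nuclear partner of NF-kappa-B, by 2.95 ± 0.42 (adjusted p = 0.00191). Pim1, a survival kinase, rose from 92.3 and 85.7 CPM to 156 and 172 CPM (0.88 ± 0.10, adjusted p = 0.000944), and Birc5, an inhibitor of apoptosis made in dividing cells, by 2.40 ± 0.31 (adjusted p = 0.00131). Il6st, the shared receptor chain of the interleukin-6 family and named after its values were seen, was the gene that fell (-0.49 ± 0.11, adjusted p = 0.011). The 12 that rose were 6 and 7 without Control DMBA TPA 1 and 2 and 7 without DMBA/TPA 2. In those fits fewer of all tested genes were called too. No target was called in the DMBA comparison, but DESeq2 called 2 higher. Against all 4 acetone libraries 4 were higher and 1 lower, and against the other acetone group 5 were higher and 2 lower. Of all 19450 tested genes, DESeq2 called 428 and these controls 1228 and 3210, beside 52 in the main fit.

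Genes that interleukin-20 subfamily cytokines or interleukin-22 raise in cultured human keratinocytes were listed as 20 genes. After DMBA/TPA 16 of the 18 tested rose and none fell (median 5.17), beside 22.4% of all tested genes higher and 18.3% lower. With the DMBA and Control DMBA libraries alone 16 listed genes passed the low-count filter, and with the acetone libraries alone 13. Some of the 18 may therefore have been tested only through DMBA/TPA, so the count and median are a description. S100a9, a calcium-binding alarmin, went from 0.0697 and 0.330 CPM to 71.8 and 133 CPM (8.88 ± 0.53, adjusted p = 0.000199 by edgeR). Krt16 (8.01 ± 0.62, adjusted p = 0.000322) and Krt6b (10.44 ± 0.93, adjusted p = 0.000429), keratins of thickened epidermis, and Serpinb3a, a protease inhibitor (6.64 ± 0.62, adjusted p = 0.000466), also rose. Krt16 had 2881 CPM in DMBA/TPA 1 and 9228 in DMBA/TPA 2, the same order as Il19 and Il24. In the DMBA comparison none of the 18 was called, but 6 were higher against the other acetone group (median 1.40) and 4 against all 4 acetone libraries (median 0.86). With those controls 3210 and 1228 of the 19450 tested genes were called.

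Of 12 differentiation genes that the same cytokines lower in cultured human keratinocytes, 7 rose after DMBA/TPA, 1 fell and 4 were not called (median 1.08), beside 22.4% of all tested genes higher and 18.3% lower. Casp14, a protease of cornification, rose by 3.33 ± 0.23 (adjusted p = 0.000249 by edgeR) and Flg, the filaggrin precursor, by 3.71 ± 0.31 (adjusted p = 0.000377). Ivl, the envelope protein involucrin, rose by 1.23 ± 0.15 (adjusted p = 0.00112), and Calm4, a calmodulin-like protein of the epidermis, by 1.97 ± 0.27 (adjusted p = 0.00153). Calm5, named after its values were seen, was the gene that fell (-0.66 ± 0.13, adjusted p = 0.00583). None of the 12 was called in the DMBA comparison, and 4 were lower against the other acetone group. Of all 19450 tested genes, 1345 were lower with that control.

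Cytokines that induce the ligands in keratinocytes or myeloid cells were listed as 15 genes, of which 9 reached a testable level. In DMBA/TPA 7 of the 9 rose and none fell (median 2.04), beside 22.4% of all tested genes higher and 18.3% lower. The interleukin-36 genes rose, Il1f6 (interleukin-36 alpha) by 6.38 ± 0.59 (adjusted p = 0.000456 by edgeR), Il1f9 (interleukin-36 gamma) by 2.44 ± 0.21 (adjusted p = 0.000419) and Il1f8 (interleukin-36 beta) by 2.21 ± 0.25 (adjusted p = 0.000815). Il1a, the epidermal interleukin-1, rose from 2.65 and 2.69 CPM to 10.3 and 9.04 CPM (1.85 ± 0.24, adjusted p = 0.00131). Il17a, the T cell cytokine, was below the testable level, at 0.0786 and 0.274 CPM in DMBA/TPA and 0 counts in all other libraries. None of the 9 was called in the DMBA comparison, and 1 was higher and 1 lower against the other acetone group. Over all 19450 tested genes that control gave 1865 higher and 1345 lower.

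**Figure D4:**
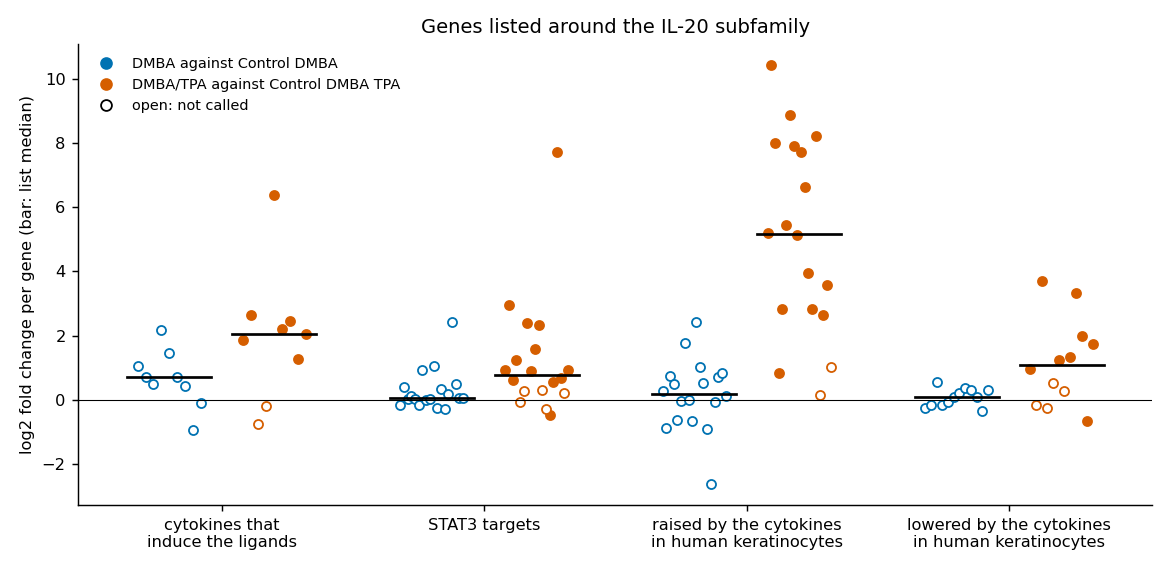
Log2 fold change of each tested gene in 4 lists around the subfamily, after DMBA (blue) and after DMBA/TPA (orange), with open points for genes not called and a bar at each list's median. The DMBA medians lie between 0.05 and 0.69 with no filled point, and the DMBA/TPA medians are 2.04, 0.78, 5.17 and 1.08 from left to right.

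Markers of other cells moved between Control DMBA TPA and DMBA/TPA, where 22.4% of all tested genes were higher and 18.3% lower. The part of these cells in the values above was not tested. The summed level of 8 T cell markers was 212 and 200 CPM in Control DMBA TPA and 76.7 and 66.5 CPM in DMBA/TPA, and 7 of them fell. For 8 macrophage or monocyte markers the sums of 102 and 71.7 against 86.7 and 124 CPM overlapped, while by gene 4 rose and 1 fell (median 1.95 on the log2 scale). For 7 Langerhans cell markers the sums of 878 and 708 against 780 and 924 CPM overlapped too, and 2 rose. Of 8 neutrophil markers, Ly6g, Elane and Ngp had 0 counts in every library, and 2 could be tested and rose. Their sum of 0.209 and 0.247 against 13.0 and 19.2 CPM was mainly Cxcr2, with 316 and 425 counts in DMBA/TPA. The 8 fibroblast markers summed to 521 and 610 against 1547 and 3603 CPM, and 6 rose (median 5.72 on the log2 scale). The 7 endothelial markers summed to 5.26 and 4.45 against 24.2 and 57.3 CPM, and 6 rose (median 5.93). The 7 mast cell markers summed to 7.60 and 8.68 against 16.4 and 12.2 CPM, and 3 of the 6 tested rose (median 7.05). In Control DMBA TPA 1 and 2, 5 and 6 of the 7 had 0 counts, and none did in DMBA/TPA. The control sums thus came from few genes, and the median rests on fitted values at 0 counts. The 6 melanocyte markers summed to 13.0 and 18.1 against 85.7 and 60.2 CPM, and 5 rose. Of the 8 keratinocyte markers 2 rose and 3 fell. Some sums depend on the control used. In Control DMBA the fibroblast (1561 and 717 CPM), mast cell (14.7 and 6.30) and melanocyte sums (37.7 and 62.2) overlapped those of DMBA/TPA. The T cell (167 and 212 CPM), neutrophil (0.791 and 1.45) and endothelial sums (14.8 and 7.87) did not. Control DMBA TPA was itself lower than Control DMBA for 6 fibroblast, 3 endothelial and 3 melanocyte markers, beside 4.28% of all tested genes. DMBA/TPA 2, the library with more Il19 and Il24, also had the higher keratinocyte, Langerhans cell, macrophage, neutrophil, fibroblast and endothelial sums. It had the lower T cell, mast cell and melanocyte sums.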

How the data were processed

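The deposited files hold raw counts per Ensembl gene, with a file for each library. The authors' steps, per the submitters' processing notes, included cutadapt, FastQC, Bowtie2, TopHat2 and the mm10 build. Versions, the counter and strandedness of counting: not given in the sources used here. Ribosomal RNA was depleted and libraries were directional, per the labels. The 5 summary rows were removed: reads in no gene made up 32.9% to 42.1% of a library and ambiguous reads 1.25% to 1.49%. Of the identifiers, 55227 (99.5%) matched GENCODE M21, on the same build as mm10. Replicate libraries differed beyond counting noise (chi-square over degrees of freedom 12.0 to 71.7).

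The low-count filter was filterByExpr (count 10, total 15), and 19450 genes passed. All 8 libraries were fitted with a mean per group in edgeR 4.0.16 (R 4.3.3), with TMM scaling (factors 0.911 to 1.05) and the quasi-likelihood F test, and genes were called at Benjamini-Hochberg adjusted p under 0.05 over all genes. Standard errors were derived from the fold change and its F statistic. CPM use TMM-scaled library sizes. Fitted fold changes of genes with 0 counts in a group depend on the prior count and are no bounds.

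The members and lists were chosen with earlier results of these data known. All members were named, then the 4 listed genes per list with the smallest adjusted p in the DMBA/TPA comparison, genes called in the DMBA comparison, neighbours within 200 kb and the 3 genes of most similar pattern per member. Lists share some genes, and 1 listed gene is not reported here. Promoter sequences are from RefSeq, GRCm38.p6. The fit was tested on simulated data. Alternatives were RLE and total-count scaling, no low-count filter, DESeq2 1.42.0, the sample number as a block, only the compared groups, other acetone controls, and leaving out each library.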

Additional observations from a re-analysis of the deposited data

Results flagged for a closer look

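The fitted responses of Il19 and Il24 were larger to DMBA/TPA than to DMBA, by 16.49 and 11.75 on the log2 scale. These are descriptions and no tests, because the family was chosen by the increase of Il19 after DMBA/TPA and both genes passed the low-count filter only through those libraries. Both sizes rest on fitted values of groups at or near 0 counts and are no bounds. Without Control DMBA 2, which held all 7 Il19 and all 16 Il24 counts of its group, the differences were 11.74 and 5.87 and neither was called. Without DMBA 2 they were 16.42 and 11.24, also not called, and DESeq2 did not call Il19 (15.45).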

How the results depend on the processing

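The alternatives gave 59 counts of called members, of which 47 stayed within 1.5 times the main count, and 350 values for single members, of which 308 kept direction and side of the threshold. In the DMBA comparison 1 member in place of 0 was called without a low-count filter, against all 4 acetone libraries and against the other acetone group, each time Il20ra, and leaving out a library gave 0 throughout. In the DMBA/TPA comparison the count ran from 3 to 5 on leaving out each library, and for the difference of responses from 0 to 3. Between the acetone groups it was 1 in place of 0 without a low-count filter, by DESeq2 and in the fit of those groups alone, and 0 to 1 on leaving out each library. The log2 values that changed sign were small or rested on Control DMBA 2. Against the other acetone group the DMBA values were 0.00 for Il19, 1.32 for Il24 and -0.21 for Il22ra1, and the DMBA/TPA value of Il22ra1 was 0.20. With all 4 acetone libraries Il22ra1 had -0.10 and 0.09, and with total counts -0.01 in the DMBA comparison. On leaving out each library, the DMBA values ran from -5.66 to 0.00 (Il19), -3.25 to 3.59 (Il24), -0.26 to 0.02 (Il20rb) and -0.03 to 0.04 (Il22ra1). Il22ra1 ran from -0.12 to 0.07 in the DMBA/TPA comparison and -0.12 to 0.06 for the difference. Between the acetone groups Il19 ran from -5.66 to 0.00 and Il24 from -5.91 to 2.28. The cause was not tested. The sample numbers pair no libraries by the labels, and the deviations of same-numbered libraries correlated between -0.137 and 0.0277 over the 6 pairs of groups. With the sample number as a replicate block, 5 members were called in the DMBA/TPA comparison, 0 for DMBA, 2 for the difference and 0 between the acetone groups, the same counts as without it. Stat2 was not called in the DMBA comparison with the block. Depth limits Il20, which at 6 and 4 counts could not be tested.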

Other observations

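Control DMBA 2 was the acetone library with ligand counts above 1, and it was compared with Control DMBA 1 after its values were seen. Among listed genes with at least 10 counts over both libraries, members and cell markers left out, 64 of 85 were higher in Control DMBA 2 and 21 lower, beside 50.8% higher of all 20440 such genes. The genes named next were picked for their difference. The collagenase gene Mmp13 had 1.74 CPM in Control DMBA 2 and 0.146 in Control DMBA 1, and the keratin gene Krt6b had 62.3 against 19.4 CPM. The STAT3 targets Bcl3 and Socs3 had 18.0 against 8.53 CPM and 66.9 against 39.9 CPM. The summed macrophage or monocyte markers were 102 against 70.3 CPM, while the fibroblast (717 against 1561 CPM), mast cell (6.30 against 14.7 CPM) and endothelial markers (7.87 against 14.8 CPM) were lower. Also higher in Control DMBA 2 were the keratinocyte (36700 against 30560 CPM), T cell (212 against 167) and melanocyte sums (62.2 against 37.7). So were the neutrophil (1.45 against 0.791 CPM) and, by little, the Langerhans cell sums (828 against 812 CPM).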
